A study of Mus musculus with 9 samples.

Results

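Inmt and 3 aldehyde oxidase genes, Aox1, Aox3 and Aox4, were followed in mouse oviduct, where eggs are fertilised and embryos begin to divide on their way to the uterus. The 4 genes were found by their symbols in the array annotation, each with 1 probe set, among 19937 genes with a probe set of their own on the array. Inmt and Aox3 were chosen by their measured log2 difference between diestrus and immature oviduct on these same arrays, and Aox1 and Aox4 as relatives of Aox3, so that difference is described here without a test. RNA of whole oviduct from CD1 females was hybridised to 9 arrays: 3 of sexually mature females in diestrus, 3 of sexually mature females in estrus and 3 of sexually immature females of day 21. All 3 groups had received no hormonal stimulation, and each array held pooled tissue of 5 animals, so the spread between arrays is that between pools and not between single animals. The labels give no age for the mature females.

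Inmt encodes indolethylamine N-methyltransferase, which moves a methyl group from S-adenosylmethionine onto tryptamine and related amines; the mouse enzyme also methylates thioethers, and Temt (thioether methyltransferase) is an older symbol of the gene. Aldehyde oxidases are cytosolic enzymes built on a molybdenum cofactor, iron-sulfur clusters and FAD. They oxidise aldehydes, retinaldehyde among them, and nitrogen-containing ring compounds such as N-methylnicotinamide and many drugs. Their closest relative is xanthine dehydrogenase. In mice, Aox1 and Aox3 are known from liver and lung, Aox4 from the Harderian gland and skin, and Aox2, which was not picked but lies in the same cluster, from the lining of the nose.

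In the RefSeq annotation of GRCm38.p6 the aldehyde oxidase genes lie side by side on chromosome 1 in the order Aox1, Aox3, Aox4, Aox2, with no other protein-coding gene between them, and Inmt lies on chromosome 6. The promoter windows of Inmt and of Aox3, the members with higher values in diestrus, and of Aox1, the neighbour of Aox3 without such a difference, are shown so that they can be read against each other. Each window holds 250 bases before the RefSeq start of the gene and 50 after it, 5′ to 3′ on the strand of the gene. Capitals mark matches to any of 5 motifs searched on both strands: the TATA box TATAAA, the full estrogen response element (GGTCA and TGACC with 3 bases between them), the steroid receptor half-site TGTTCT, the antioxidant response element core TGACNNNGC and the xenobiotic response element core GCGTG.
Inmt, chr6:55174941-55175240, minus strand: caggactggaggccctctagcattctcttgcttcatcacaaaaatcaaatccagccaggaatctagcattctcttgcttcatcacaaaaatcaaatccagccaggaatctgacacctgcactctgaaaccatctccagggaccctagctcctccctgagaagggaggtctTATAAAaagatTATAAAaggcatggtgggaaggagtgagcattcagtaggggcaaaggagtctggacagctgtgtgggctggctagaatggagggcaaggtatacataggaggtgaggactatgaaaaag
Aox3, chr1:58112886-58113185, plus strand: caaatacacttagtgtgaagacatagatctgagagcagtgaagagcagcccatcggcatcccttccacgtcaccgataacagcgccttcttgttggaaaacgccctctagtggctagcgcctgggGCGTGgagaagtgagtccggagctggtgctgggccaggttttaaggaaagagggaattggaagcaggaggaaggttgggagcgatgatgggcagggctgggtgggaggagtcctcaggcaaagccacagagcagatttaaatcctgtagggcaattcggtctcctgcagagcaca
Aox1, chr1:58029719-58030018, plus strand: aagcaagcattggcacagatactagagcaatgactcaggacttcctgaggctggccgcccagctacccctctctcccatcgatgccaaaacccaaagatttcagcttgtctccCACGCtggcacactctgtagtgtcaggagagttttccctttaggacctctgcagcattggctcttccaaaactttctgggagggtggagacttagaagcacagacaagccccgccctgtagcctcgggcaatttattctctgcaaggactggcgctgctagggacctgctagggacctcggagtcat

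The Inmt window held 2 matches to TATAAA, beginning 80 and 69 bases before the start, and none of the other motifs. It also held a direct repeat of 46 bases with no gap between the copies (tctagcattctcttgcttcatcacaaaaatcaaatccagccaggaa), and repeats at least as long were found in 0.25% of 32851 promoter windows of the same length. Aox3 and Aox1 each held 1 match to GCGTG, 125 and 137 bases before the start, and no TATAAA. Aox4 held 1 TATAAA, inside the transcribed part. Neither the estrogen response element, the steroid receptor half-site nor the antioxidant core was found in the 4 windows. Among all windows, TATAAA was present in 13.6%, GCGTG in 32.4%, TGTTCT in 19% and TGACNNNGC in 12.4%, and the full estrogen response element in 0.07%. The searched motifs do not overlap each other in these windows, and a match is a string of letters, not a measured binding site.

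The deposited values are log2 intensities after robust multi-array averaging (RMA), which makes arrays comparable for 1 probe set but does not make different probe sets comparable with each other. Array medians lay between 8.85 and 8.90, and no pair of arrays held identical values. All 10 oviduct epithelium markers, among them Pax8 of secretory and Foxj1 of ciliated cells, lay above the median of their array on all 9 arrays. Diestrus 3 stood apart: it was the highest array for all 8 smooth muscle markers, 9 of 10 fibroblast markers and 4 of 6 posterior Hox markers. The mean log2 level of the smooth muscle list was 11.91 there and between 11.13 and 11.36 on the other 8 arrays. The ovary list averaged 9.52 on diestrus 2, 8.58 on diestrus 3 and 9.09 on immature 2, against 7.85 to 8.06 on the other arrays. Values are therefore also given without immature 2, diestrus 2 and diestrus 3. The fat cell list averaged 9.40 on immature 1 and 9.06 on immature 2, against 8.28 to 8.75 on the other arrays. All 7 of its measured genes had lower means in diestrus than in immature oviduct (median -0.50), and 1 of them lay above the median on all 9 arrays. The part of fat cells in the levels of the member genes was not tested. In pooled whole tissue, fewer cells of a type and less RNA per cell cannot be told apart.

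Inmt had log2 levels of 10.37, 10.87 and 10.93 in the diestrus pools, 9.29, 10.21 and 9.57 in the estrus pools and 9.43, 9.08 and 9.34 in the immature pools. Every diestrus value lay above every estrus and immature value, while the estrus and immature pools overlapped. The estrus pools were the least alike: estrus 2 approached the lowest diestrus pool and estrus 1 lay inside the immature range. All 9 values lay above the median of their array. The group means were 10.72 ± 0.31 in diestrus, 9.69 ± 0.47 in estrus and 9.28 ± 0.19 in immature oviduct (SD, n = 3 each).

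Aox3 stood at 10.12, 9.55 and 10.30 in diestrus, at 9.20, 9.49 and 9.38 in estrus and at 8.85, 8.97 and 9.18 in immature oviduct. The 3 groups formed steps without overlap, though narrow ones: diestrus 2 was only just above estrus 2, and estrus 1 only just above immature 3. The means were 9.99 ± 0.39 in diestrus, 9.35 ± 0.15 in estrus and 9.00 ± 0.17 in immature oviduct (SD, n = 3 each). On 8 of the 9 arrays, all but immature 1, Aox3 lay above the array median.

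Aox1, the first gene of the cluster, had 8.66, 8.74 and 9.15 in diestrus, 8.70, 8.72 and 8.72 in estrus and 8.63, 8.68 and 8.72 in immature oviduct. Diestrus 3 was the one array with a clearly higher value, and the other 8 arrays lay between 8.63 and 8.74. It was also the one array where Aox1 lay above the array median. Aox4, the skin and Harderian gland enzyme, stood at 8.23, 8.22 and 8.06 in diestrus, 8.14, 8.11 and 8.14 in estrus and 8.07, 8.15 and 8.14 in immature oviduct. Its groups overlapped, and diestrus held both the highest and the lowest value. Aox4 lay below the median on all 9 arrays, as did Aox2, which ranged from 7.71 to 7.85 in diestrus, 7.72 to 7.78 in estrus and 7.64 to 7.72 in immature oviduct. The values of Aox4 and Aox2, and of Aox1 outside diestrus 3, were not shown to be above background.

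**Figure D1:**
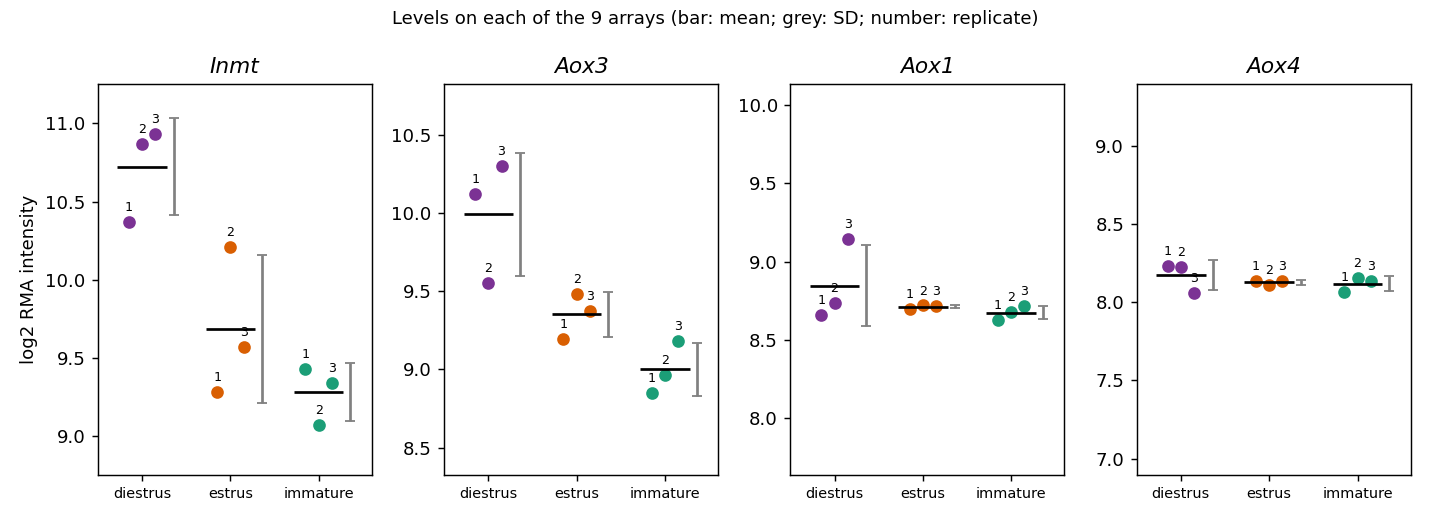
Log2 RMA intensity (vertical axis, the same span of 2.5 log2 units in each panel but a different start) of Inmt, Aox3, Aox1 and Aox4 in diestrus, estrus and immature oviduct; each point is 1 array of 5 pooled animals, black bars are means and grey bars are SD. Inmt and Aox3 are highest in diestrus, with diestrus 2 the lowest diestrus array for Aox3 and diestrus 1 for Inmt, whereas Aox1 is raised on diestrus 3 alone.

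Between diestrus and immature oviduct, the contrast through which the genes were picked, Inmt differed by 1.44 ± 0.23 on the log2 scale (SE of the limma fit), 2.71-fold in intensity. Aox3 differed by 0.99 ± 0.17, or 1.99-fold. From high to low among all 28214 probe sets, these differences ranked 10 and 40. Aox1 differed by 0.17 ± 0.11 and Aox4 by 0.05 ± 0.06. In 2 of the 4 genes, Inmt and Aox3, all diestrus arrays lay above all immature arrays. This was the case for 7.52% of all probe sets, but these 2 genes were picked by this difference, so the shares cannot be compared. With diestrus 3 left out, the differences were 1.34 for Inmt, 0.84 for Aox3 and 0.024 for Aox1. Without immature 2, diestrus 2 and diestrus 3 together, which leaves diestrus 1 as the lone diestrus array, they were 0.98 for Inmt, 1.11 for Aox3 and -0.013 for Aox1.

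Diestrus was next set against estrus, that is, the progesterone-dominated phase of the cycle against the phase of mating and ovulation. This comparison was tested, but it shares its diestrus arrays with the contrast used to pick the genes. Inmt was 1.04 ± 0.23 higher on the log2 scale in diestrus (SE; 95% interval 0.53 to 1.54), 2.05-fold in intensity, and did not pass the test over all probe sets (limma adjusted p = 0.133, unadjusted p = 0.00113). Aox3 was 0.64 ± 0.17 higher (95% interval 0.25 to 1.03), 1.56-fold, and did not pass either (limma adjusted p = 0.224, unadjusted p = 0.00458). Both genes had all 3 diestrus arrays above all 3 estrus arrays, as did 4.93% of all probe sets. Without immature 2, diestrus 2 and diestrus 3 the Inmt difference was 0.68 (limma adjusted p = 0.982) and that of Aox3 0.77. Aox1 differed by 0.14 ± 0.11 (95% interval -0.11 to 0.38) and Aox4 by 0.05 ± 0.06 (95% interval -0.09 to 0.18), with limma adjusted p of 0.854 and 0.951. Thus 0 of 4 genes were called by limma, against 0.159% of all probe sets, and 2 of 4 had an unadjusted p under 0.05, against 9.33% of all probe sets. With arrays weighted by their quality, the Inmt difference of 1.15 ± 0.14 did pass (limma adjusted p = 0.00178), in a fit that called 3331 probe sets, against 45 without weights. Over all alternatives tried, the adjusted p of this difference ranged from 0.00178 to 0.982.

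Estrus against immature oviduct shares its immature arrays with the contrast used to pick the genes. Inmt differed by 0.40 ± 0.23 (95% interval -0.10 to 0.91; limma adjusted p = 0.832), and by 0.14 with estrus 2 or 0.61 with estrus 1 left out. Aox3 differed by 0.35 ± 0.17 (95% interval -0.04 to 0.74; limma adjusted p = 0.801), with all estrus arrays above all immature arrays, as for 3.19% of all probe sets. Aox1 differed by 0.04 ± 0.11 and Aox4 by 0.01 ± 0.06. No member passed the test, 0 of 4 by limma and 0 of 4 at an unadjusted p under 0.05, against 0.0851% and 6.52% of all probe sets. For Inmt and Aox3, then, the order of the means ran from diestrus through estrus to immature. The estrus and immature arrays of Inmt overlapped, while those of Aox3 did not overlap but the difference did not pass the test.

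**Figure D2:**
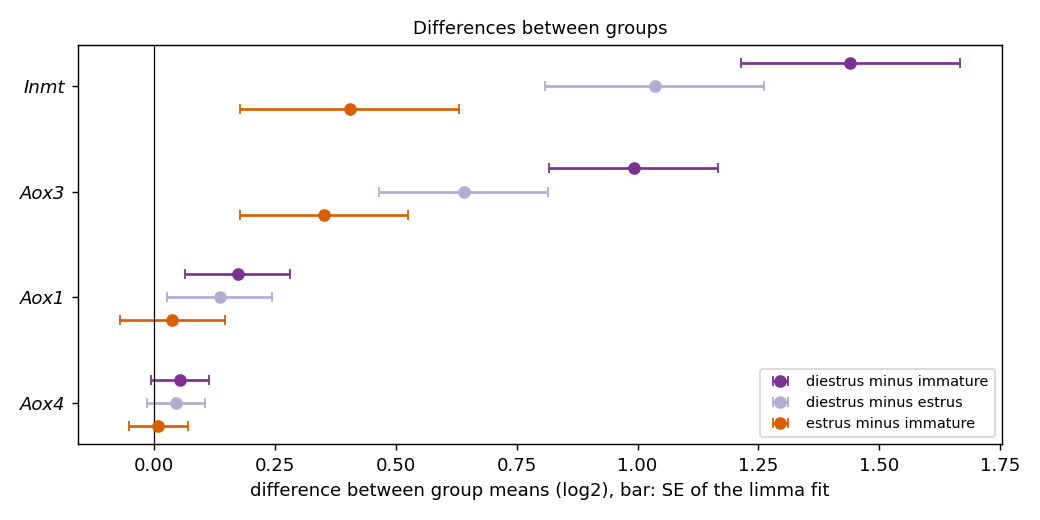
Differences between group means on the log2 scale (horizontal axis) for each gene (rows), with bars for the SE of the limma fit; purple is diestrus minus immature, pale purple diestrus minus estrus and orange estrus minus immature. Inmt and Aox3 differ most between diestrus and immature oviduct, by 1.44 and 0.99, while all differences of Aox1 and Aox4 lie between 0.01 and 0.17.

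Inmt and Aox3 were both highest on diestrus 3, the array that stood apart by its markers, but the lowest diestrus array differed: it was diestrus 1 for Inmt and diestrus 2 for Aox3. Across the 9 arrays the correlation of the 2 genes was 0.83, and that of their deviations from the group means was 0.15 (Pearson's r, n = 9 arrays, given as a description). Aox1 and Aox3, which lie next to each other, had values of 0.67 and 0.56 for the same measures, in which diestrus 3, high for both, takes part.

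Several marker lists of other cells were highest on diestrus 3, the one array with a clearly higher Aox1 value. On diestrus 3, where Aox1 was 9.15, Inmt 10.93 and Aox3 10.30, the fibroblast list averaged 11.54, the posterior Hox list 8.77 and the macrophage list 9.92 on the log2 scale, each the highest of the 9 arrays. Across arrays, Aox1 correlated at 0.95 with the mean of the smooth muscle list, against 0.49 for Inmt and 0.59 for Aox3 (Pearson's r, n = 9 arrays, as a description). With the macrophage list the correlations were 0.86 for Aox1, 0.57 for Inmt and 0.54 for Aox3, and with the endothelium list 0.77, 0.27 and 0.41. Diestrus 3, the highest array for Aox1 and for each of these lists, takes part in all these correlations. On the other 8 arrays Aox1 spanned only 8.63 to 8.74 and the smooth muscle list 11.13 to 11.36. The macrophage list ranged from 9.29 to 9.92 in diestrus, 9.21 to 9.33 in estrus and 9.20 to 9.49 in immature oviduct, with all 6 measured genes having higher means in diestrus than in both other groups. The endothelium list ranged from 9.06 to 9.60 in diestrus, 9.00 to 9.15 in estrus and 9.13 to 9.31 in immature oviduct, and all 7 of its genes had higher means in diestrus than in estrus. The part of these cells in the levels of Inmt, Aox3 and Aox1 was not tested. On diestrus 1, where the smooth muscle list averaged 11.18, the fibroblast list 10.84, the macrophage list 9.29 and the ovary list 7.90, all within the range of the estrus and immature arrays, Inmt was at 10.37 and Aox3 at 10.12. That is 1 array. Lcp1, a gene of leukocytes, stood at 10.35 on it, above all estrus and immature arrays (at most 10.17). The hepatocyte markers included none above the median on all 9 arrays, and Alb (albumin) stood at 9.32 on diestrus 2 and at most at 7.68 elsewhere.

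**Figure D3:**
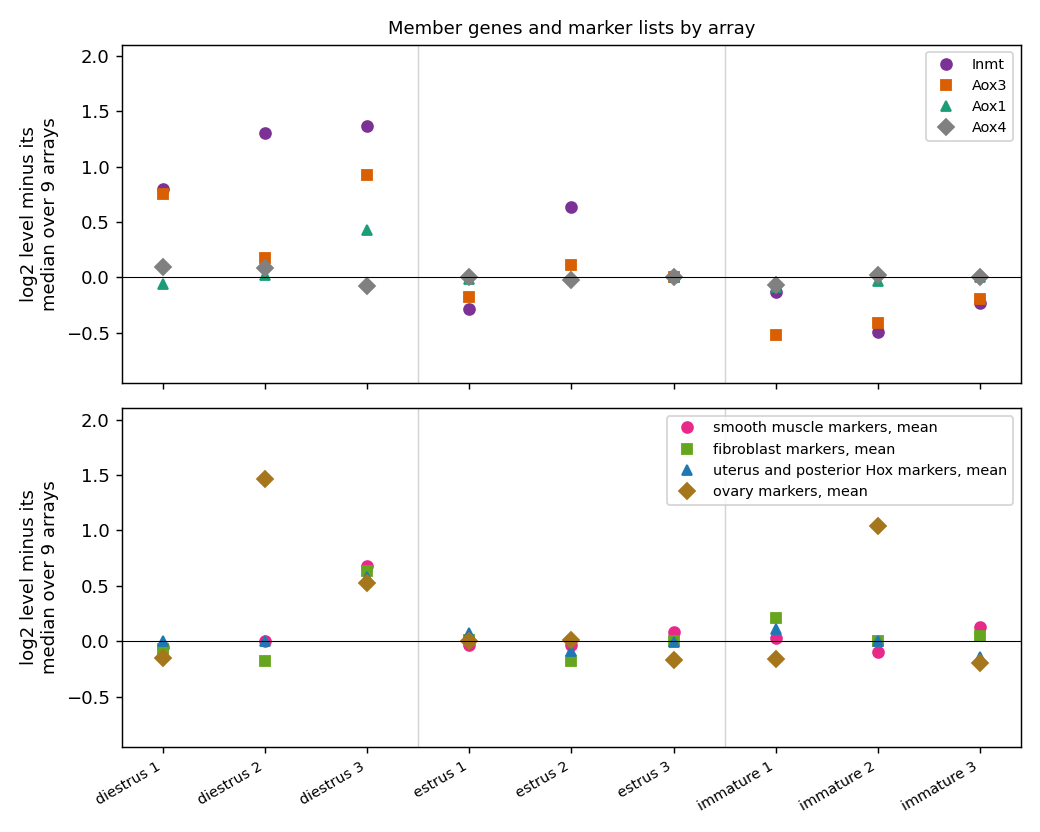
Log2 level minus its median over the 9 arrays (vertical axis) by array (horizontal axis, diestrus, estrus and immature from left to right), for the 4 genes above and for the mean of 4 marker lists below. Inmt, Aox3, Aox1 and the smooth muscle, fibroblast and posterior Hox lists are all high on diestrus 3, and the ovary list is highest on diestrus 2.

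The genes whose profile over the 9 arrays was most like that of Inmt, among 11518 genes above the median level, were the phospholipase gene Plcg2 and Lcp1, which encodes an actin-bundling protein of leukocytes, followed by Rabac1, the thioredoxin-binding gene Txnip, Asap2 and the small GTPase gene Rhoq. Their Pearson correlations with Inmt ranged from 0.95 to 0.97 (n = 9 arrays, which include the differences between groups). Their differences were smaller than that of Inmt. Lcp1 stood at 10.35, 10.49 and 10.40 in diestrus, 9.91, 10.17 and 10.04 in estrus and 10.08, 9.84 and 9.91 in immature oviduct, so all 3 diestrus arrays were above the rest. The part of leukocytes in the level of Inmt was not tested. For Aox3 the most similar genes were the histone demethylase gene Kdm7a, Mical3, the carnosine dipeptidase gene Cndp1, the myosin phosphatase subunit gene Ppp1r12b, the ribosomal protein gene Rpl14 and the sulfotransferase gene Sult5a1, with correlations between 0.91 and 0.94. Cndp1 had 10.91, 10.72 and 10.85 in diestrus, 10.35, 10.54 and 10.36 in estrus and 10.22, 10.04 and 10.18 in immature oviduct, in steps without overlap as for Aox3. No gene was on both lists.

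**Figure D4:**
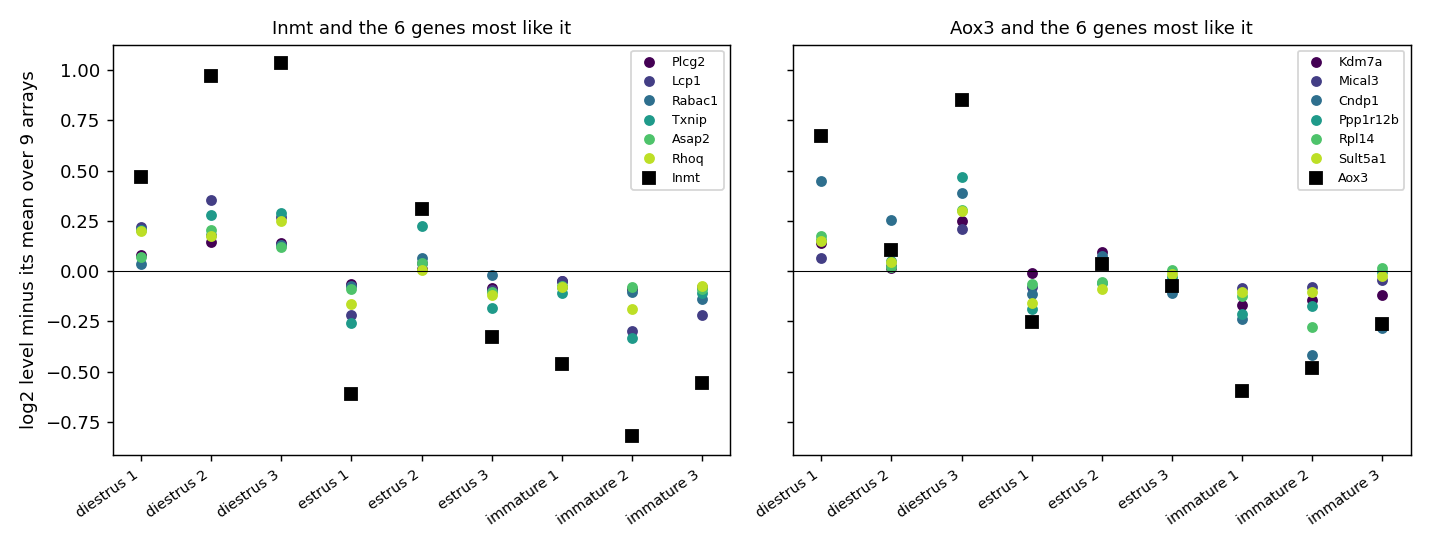
Log2 level minus its mean over the 9 arrays (vertical axis) by array (horizontal axis), for Inmt (left, black squares) and Aox3 (right, black squares) and the 6 genes most correlated with each (coloured points). Inmt spans a wider range than the genes most like it, while Cndp1 comes closest to the range of Aox3.

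Neighbouring genes on the chromosome were examined as well. Of 12 protein-coding genes, the 3 nearest with a probe set on each side of Inmt and of the aldehyde oxidase cluster, 1 was called between diestrus and immature oviduct, where 1% of all probe sets were called. It was Sgo2a, which protects centromeres in meiosis and lies nearest to Aox1 outside the cluster. Sgo2a had 8.27, 8.35 and 8.82 in diestrus, 8.76, 8.30 and 8.46 in estrus and 9.40, 9.29 and 9.30 in immature oviduct. The immature arrays were the highest, and diestrus and estrus overlapped. In diestrus minus immature it fell by 0.85 ± 0.15 (SE; limma adjusted p = 0.0369). That call ended when any immature array, estrus 3, diestrus 1 or diestrus 2 was left out (limma adjusted p from 0.0638 to 0.134). Bzw1, next to Aox2 on the other side, differed by -0.29 ± 0.09 in the same comparison (limma adjusted p = 0.197). Near Inmt, the water channel gene Aqp1 stood at 10.03, 10.25 and 10.93 in diestrus against 9.73, 9.64 and 9.93 in immature oviduct (difference 0.63 ± 0.21, limma adjusted p = 0.23). In diestrus minus estrus and estrus minus immature, 0 of the 12 neighbours were called by limma, against 0.159% and 0.0851% of all probe sets. At an unadjusted limma p under 0.05 there were 2 and 1, against 9.33% and 6.52%. In diestrus minus immature, 3 of the 12 had all diestrus arrays above all immature arrays, against 7.52% of all probe sets. There, 3 had them all below and 5 had an unadjusted limma p under 0.05. The shares of all probe sets for these last 2 counts are not given here, so the counts cannot be judged as high or low.

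The metabolic surroundings of these enzymes were described with 10 gene lists, 86 measured genes of 94 listed. In diestrus minus immature the largest difference among them was 0.74, of Fmo2, against 1.44 for Inmt and 0.99 for Aox3. Inmt and Aox3 were picked by this difference, so their higher place was fixed beforehand. In diestrus minus estrus, which shares the diestrus arrays, Fmo2 (0.67) and Xdh (0.66) lay below Inmt (1.04) but above Aox3 (0.64). In diestrus minus immature, 1 gene was called higher and 1 lower, against 0.294% and 0.705% of all probe sets, with a median difference of 0.01 over the 86 genes and 0.01 over all probe sets. In diestrus minus estrus, the same genes, Cyp1b1 and Gclc, were called, again 1 higher and 1 lower, against 0.0673% and 0.0922%. In estrus minus immature, 0 of 86 were called. All 5 genes that assemble the molybdenum cofactor, without which aldehyde oxidase is inactive, had lower means in diestrus than in immature oviduct (median -0.08). None was called. Mocs3 and Mocos lay below the median of every array, where a small difference says little. Mocs1 stood at 10.41, 10.38 and 9.99 in diestrus and at 10.40, 10.24 and 10.33 in immature oviduct. Its lower mean (difference -0.07 ± 0.11) came from diestrus 3 alone. Mocs2, of the molybdopterin synthase, differed by -0.21 ± 0.07 (limma adjusted p = 0.202), Mocos, which adds the sulfur that aldehyde oxidase needs, by -0.11 ± 0.06, and the abundant Gphn by -0.02 ± 0.07.

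Among other molybdenum enzymes, xanthine dehydrogenase followed the diestrus pattern most closely. Xdh stood at 10.19, 10.51 and 10.06 in diestrus, 9.46, 9.84 and 9.50 in estrus and 9.58, 9.67 and 9.84 in immature oviduct. All diestrus arrays lay above the others, and the estrus and immature arrays overlapped. The difference was 0.66 ± 0.13 from estrus and 0.56 ± 0.13 from immature oviduct, and neither passed the test (limma adjusted p = 0.107 and 0.0979). Suox, the sulfite oxidase gene, differed by 0.27 ± 0.13 between diestrus and immature oviduct (limma adjusted p = 0.418).

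Of the measured methyltransferases of other small molecules, none had all diestrus arrays above all immature arrays, where 7.52% of all probe sets did. Inmt had, but it was picked by this difference, so it cannot be set against them here. Pnmt and Gnmt lay below the median on all 9 arrays. In diestrus minus estrus 4 of 8 had higher means (median -0.01), and 0 were called. The largest rises there were those of Nnmt (0.23 ± 0.06) and As3mt (0.22 ± 0.09). Nnmt, like Inmt, had all diestrus arrays above all estrus arrays, as did 4.93% of all probe sets. Of 8 measured, 4 had higher means in diestrus than in immature oviduct, the median was -0.01 and 0 were called. Gamt of creatine synthesis differed by -0.27 ± 0.08, the thiopurine methyltransferase gene Tpmt by -0.23 ± 0.08 and Pemt, which methylates phosphatidylethanolamine, by -0.19 ± 0.06 (limma adjusted p between 0.187 and 0.219). Nnmt, chosen after its values were seen, makes the N-methylnicotinamide that aldehyde oxidases oxidise; it stood at 8.49, 8.70 and 8.62 in diestrus, 8.32, 8.38 and 8.43 in estrus and 8.46, 8.52 and 8.50 in immature oviduct, below the median of every array. The cycle that supplies S-adenosylmethionine had a median of -0.01 over 9 genes. Cbs, which diverts homocysteine from that cycle, had the largest difference of these, -0.22 ± 0.08 (limma adjusted p = 0.252).

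Genes for making and clearing tryptamine numbered 10, Ddc, Maoa and Tph1 among them. Their differences between diestrus and immature oviduct lay between -0.17 ± 0.25 (Maob) and 0.18 (Aoc3), with 0 called. In diestrus minus estrus, 8 of 10 had higher means (median 0.03), the largest that of Aoc3 (0.40 ± 0.14), and 0 were called. Ddc, Tph1 and Tph2 lay below the median of every array. The very bright amine oxidase gene Aoc1 ranged from 12.78 to 12.87 in diestrus, 12.56 to 12.95 in estrus and 12.79 to 12.84 in immature oviduct. Of 19 aldehyde dehydrogenases, the other enzymes that oxidise aldehydes, 12 had higher means in diestrus than in immature oviduct (median 0.04), 0 called. Aldh1a1, the retinaldehyde dehydrogenase gene, differed by 0.32 ± 0.21, Aldh3b1 by -0.28 ± 0.08 and Aldh18a1, of proline synthesis, by -0.20 ± 0.06 (limma adjusted p = 0.575, 0.173 and 0.21).

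Flavin monooxygenases, drug-oxidising enzymes like aldehyde oxidases, were split. Fmo2 had 11.31, 11.12 and 11.15 in diestrus, 10.18, 10.83 and 10.56 in estrus and 10.48, 10.22 and 10.65 in immature oviduct. All 3 diestrus arrays were again the highest, with differences of 0.67 ± 0.16 from estrus and 0.74 ± 0.16 from immature oviduct that did not pass the test (limma adjusted p = 0.163 and 0.069). Fmo1, in contrast, differed by -0.26 ± 0.23 between diestrus and immature oviduct (limma adjusted p = 0.697). Genes of nicotinamide and NAD turnover had a median of -0.01 over 9 genes, with 0 called, and Nmnat1 differed by -0.34 ± 0.09 (limma adjusted p = 0.126).

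Mouse Aox1 is known as a target of the transcription factor Nrf2, and the lists of targets of Nrf2 and of the aryl hydrocarbon receptor held the called genes. Gclc, the catalytic subunit of the enzyme that limits glutathione synthesis, had 11.22, 11.33 and 11.19 in diestrus, 11.73, 11.65 and 11.80 in estrus and 11.67, 11.60 and 11.64 in immature oviduct. Gclc fell by 0.48 ± 0.06 from the level of estrus and by 0.39 ± 0.06 from that of immature oviduct (limma adjusted p = 0.0229 and 0.0251). Of the other 11 Nrf2 targets none was called; Nqo1 differed by 0.00 ± 0.10 and -0.39 ± 0.10 in the same comparisons (limma adjusted p = 0.999 and 0.11). Cyp1b1, a target of the aryl hydrocarbon receptor whose enzyme hydroxylates estrogens, had 9.45, 9.46 and 9.63 in diestrus, 8.77, 9.07 and 8.98 in estrus and 8.95, 8.96 and 8.96 in immature oviduct. Cyp1b1 rose by 0.57 ± 0.08 over estrus and by 0.56 ± 0.08 over immature oviduct (limma adjusted p = 0.0344 and 0.0206), while the other 4 genes of its list, Cyp1a1 among them, were not called. The call of Cyp1b1 against estrus ended whichever array was left out (limma adjusted p from 0.0509 to 0.14), and that of Gclc against estrus without immature 2 or 3, estrus 1 or 3, or diestrus 1 or 2 (up to 0.0984). Against immature oviduct both ended without any of the 3 immature arrays, diestrus 1 or diestrus 2 (limma adjusted p from 0.0554 to 0.0957 for Gclc and from 0.0574 to 0.0915 for Cyp1b1).

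**Figure D5:**
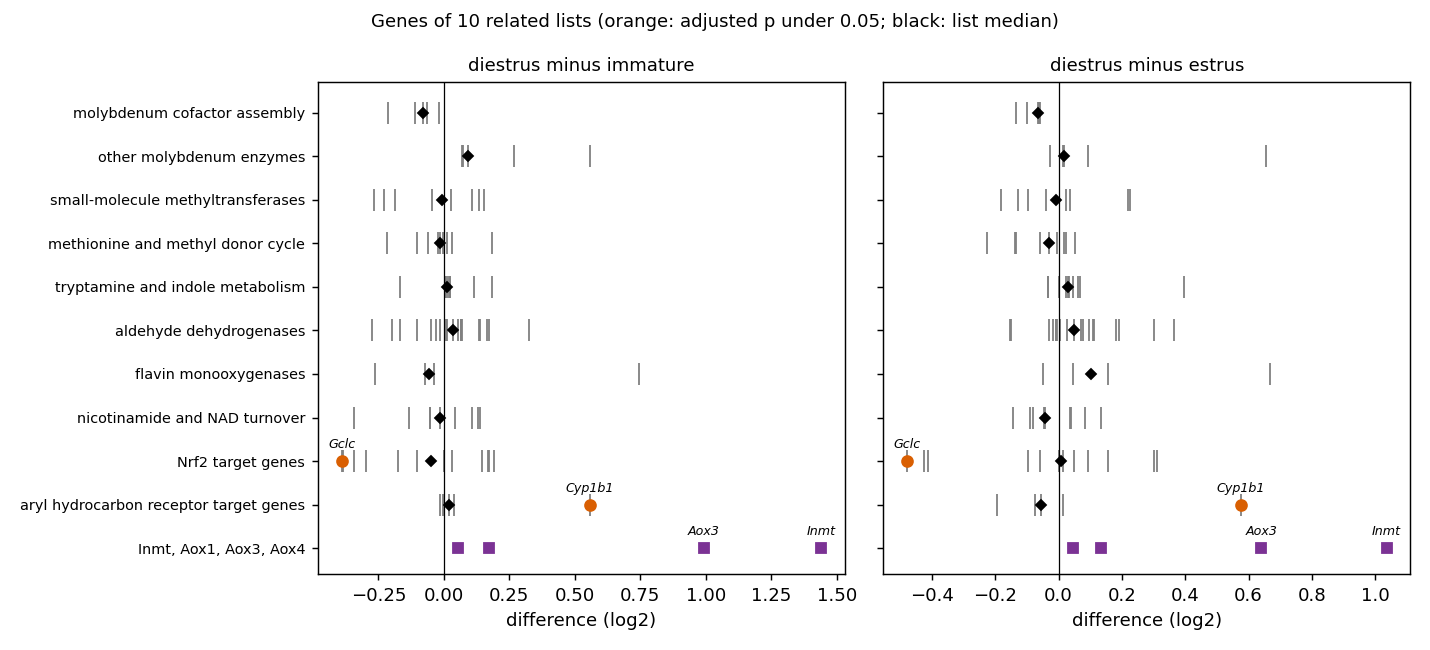
Differences on the log2 scale (horizontal axis) of the genes of 10 lists (rows; each tick is 1 gene, black diamonds are list medians, orange points are genes with a limma adjusted p under 0.05), for diestrus minus immature on the left and diestrus minus estrus on the right, with Inmt, Aox1, Aox3 and Aox4 as squares in the bottom row. Inmt, at 1.44 and 1.04, lies outside the range of all list genes in both panels, list medians stay near 0, and Cyp1b1 and Gclc are the called genes. Inmt was picked by the difference on the left, whose diestrus arrays the right panel shares, so its place was partly fixed beforehand.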

How the data were processed

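Per the labels' protocols, RNA was extracted with RNAzol from oviducts of CD1 mice, pooled from 5 animals per array, in 3 groups of 3 arrays. RMA and Affymetrix Expression Console are named in the submitters' processing notes, without versions or settings; as a method, RMA corrects background, normalizes quantiles and gives 1 value per probe set. The deposited values were taken as log2 intensities, the scale RMA gives, from their range. All 28214 probe sets entered 1 two-sided fit of the 3 groups (limma 3.58.1, functions lmFit and eBayes, R 4.3.3) with 6 residual and 3.60 prior degrees of freedom. Calls needed an adjusted p (Benjamini-Hochberg) under 0.05. Symbols came from the platform annotation (21640 probe sets with 1 symbol, 1321 with several, 5253 without); the brightest probe set stood for a gene. Precision is limited by the number of arrays. The fit was tested on simulated data. Promoters are from RefSeq (GRCm38.p6), matched by symbol for 4 of 4 genes.

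Members and lists were chosen with earlier results of these data known. Named were all members, and of each list the called genes, the 2 with the largest other differences between diestrus and immature oviduct and the brightest, of which the text takes a part. Also named were the 6 genes most correlated with Inmt and Aox3, predicted genes left out, and the neighbours. Alternatives were a replicate block, leaving out dim probe sets, cyclic loess or median centring of the arrays, array weights, a robust prior with an intensity trend, a fit of only the 6 arrays compared and each array left out. Leaving out immature 2, diestrus 2 and diestrus 3 together was added after seeing the data.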

Additional observations from a re-analysis of the deposited data

How the results depend on the processing

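Inmt and Aox3 kept the sign of their 3 differences under all 17 alternatives. For diestrus minus immature the range was 0.98 to 1.62 for Inmt and 0.84 to 1.21 for Aox3, and for diestrus minus estrus 0.68 to 1.30 and 0.45 to 0.86. With single arrays left out, the Inmt differences were 1.34 to 1.62, 0.83 to 1.30 and, for estrus minus immature, 0.14 to 0.61; those of Aox3 were 0.84 to 1.21, 0.49 to 0.86 and 0.28 to 0.44. Inmt passed the test for diestrus minus estrus with array weights (1.15). Without immature 2, diestrus 2 and diestrus 3, which assumes that the lone diestrus array varies like the other groups, diestrus minus immature was 0.98 for Inmt, 0.13 for Aox4 and, with its sign turned, -0.013 for Aox1. Aox1 also turned sign for diestrus minus estrus in that setting (-0.052) and without diestrus 3 (-0.013), with a range over left-out arrays up to 0.23, and Aox4 for estrus minus immature with median centring (-0.0010), cyclic loess (-0.028) and without immature 1 (-0.018, against up to 0.026 without other arrays). The filter on dim probe sets removed Aox1 and Aox4 and gives no value for them.

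The number of called probe sets depended on the setting far more. For estrus minus immature, 24 became 4 with the replicate block, 5 with cyclic loess, 1023 with array weights, 2 without immature 2, diestrus 2 and diestrus 3, and 1 to 95 with single arrays left out. For diestrus minus estrus, 45 became 13 with the replicate block, 131 with the dim filter, 3331 with array weights, 0 with only the 6 arrays compared, 0 without the 3 arrays, and 1 to 105. For diestrus minus immature, 282 became 121 with the block, 1288 with weights, 85 with 6 arrays, 3 without the 3 arrays, and 41 to 533. List members called for diestrus minus estrus (2) became 0 with the block, 1 with median centring, 15 with weights, 0 with 6 arrays, 0 without the 3 arrays and 0 to 2; for diestrus minus immature (2) they became 1 with the block, 5 with weights, 1 with 6 arrays, 0 without the 3 arrays and 0 to 3; for estrus minus immature weights gave 1. The cause was not tested. The replicate numbers share only a number: correlations of same-numbered deviations between groups ranged from -0.29 to 0.17, and with the block the Inmt and Aox3 differences were 1.04 and 0.64 for diestrus minus estrus. The calls of Gclc (limma adjusted p = 0.0728 and 0.0706), of Cyp1b1 against estrus (0.0679) and of Sgo2a (0.0645) ended with it. Probe sets below the array median (Aox4, most of Aox1) were not shown to be above background, which limits what their small differences can show.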
